A study of Mus musculus with 4 samples.

Results

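Proteasome subunit genes were taken as the autosomal protein-coding genes whose symbol is Psma, Psmb, Psmc, Psmd, Psme, Psmf or Psmg followed by a number (GENCODE M21, basic set). There were 47 of them among 20720 autosomal protein-coding genes, and the X-linked Psmd10 was not analysed here. H3K4me3 HiChIP, which joins DNA ends that lie close together in the nucleus and then pulls down those that carry a histone mark of active promoters, was run on bone marrow-derived macrophages (BMDMs) of C57BL/6J mice grown for 7 days with M-CSF. In 2 samples the cells had received 20 ng/mL of the cytokine interleukin-4 (IL-4) for 24 h, and 2 samples were left untreated (basal). The values are 1 list of significant contacts called on the merged reads of these 4 samples, so IL-4-treated and basal macrophages were not compared, there is no replicate error, and the depth per sample is unknown. Each entry joins a pair of 5-kb bins and is called an interaction below. It carries an observed count of read pairs, an expected count from the authors' model and the false discovery rate (FDR) of the excess. All FDRs in the list were below 0.01.

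The proteasome is the main protease of the cytosol and nucleus and degrades proteins tagged with ubiquitin. Its 20S core is a barrel of stacked rings of α subunits (Psma genes) and β subunits (Psmb genes), and it is capped by the 19S particle, whose ATPases (Psmc genes) unfold substrates and whose other subunits (Psmd genes) bind and remove ubiquitin. In cells exposed to interferon-γ the catalytic β subunits Psmb5, Psmb6 and Psmb7 are replaced in new particles by Psmb8, Psmb9 and Psmb10, giving the immunoproteasome, which produces peptides for presentation on MHC class I. Psmb8 and Psmb9 lie in the MHC beside Tap1 and Tap2, the genes of the transporter that carries these peptides into the endoplasmic reticulum.

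An interaction was assigned to a gene where a transcription start site (TSS) of one of its protein-coding transcripts lay in either bin, and that bin is called the promoter bin. Of the 47 proteasome genes, 45 (95.7%) had at least 1 interaction, beside 63.2% of all 20720 genes. At least 10 interactions were found for 27 proteasome genes (57.4%), beside 27.3% of all genes. The median was 16 interactions per proteasome gene (quartiles 6 and 27, mean 18.8 ± 17.0, SD over genes) and 2 per gene over all genes. The list held 882 distinct interactions at 48 proteasome promoter bins, out of 237102 on the 19 autosomes. These levels were close to those of ribosomal protein genes, which like the proteasome are used by every cell. The 79 cytosolic ribosomal protein genes had a median of 16 interactions and the 75 mitochondrial ones a median of 12. The genes of such lists are not replicates of a condition, and no test was made between them.

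Numbers of interactions moved with promoter bins that hold the TSS of another gene. Such bins were found for 14 proteasome genes, for instance Psmb9 with Tap1, Psmb1 with the TATA-binding protein gene Tbp, Psma2 with Mrpl32 and Psme2 with Rnf31. Others were Psma4 with AY074887, Psma7 with Ss18l1, Psmb3 with Pcgf2, Psmc2 with Dnajc2 and Psmc5 with Ftsj3. The rest were Psmd5 with Cutal, Psmd13 with Sirt3, Psme1 with Fitm1, Psmg2 with Cep76 and Psmg3 with Gm26938. The interactions of these 14 genes cannot be told apart from those of their neighbours. They had a median of 24 interactions, beside 10 for all 2992 genes with shared bins. The 33 proteasome genes with bins of their own had a median of 9, beside 1 for all 17728 such genes. A divergent protein-coding TSS within 1000 bp was annotated for 9 of the 47 genes (19.1%) and for 9.23% of all genes.

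**Figure D1:**
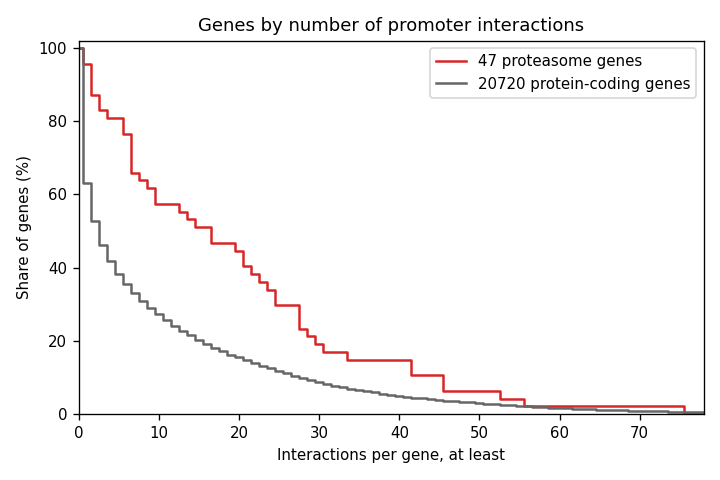
Share of genes (%, vertical axis) with at least the number of interactions on the horizontal axis, for the 47 proteasome genes (red) and all 20720 autosomal protein-coding genes (grey). The red line lies above the grey line at 1 interaction (95.7% and 63.2%) and at 10 interactions (57.4% and 27.3%).

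Among the catalytic subunits, the immunoproteasome genes had 20 interactions (Psmb8), 45 (Psmb9) and 29 (Psmb10), whereas the constitutive genes had 2 (Psmb5), 27 (Psmb6) and 52 (Psmb7). The means were 31.3 ± 12.7 for the immunoproteasome genes and 27.0 ± 25 for the constitutive genes (SD over genes, n = 3 each), and the medians were 29 and 27. The ranges overlapped, and the constitutive range held the immunoproteasome range. The difference of medians was 2 interactions. It was -3 where only ratios of at least 4 counted or where clusters of 1 bin pair were left out, and 14.5 without Psmb7. Psmb7 was the constitutive gene with the most interactions, and no immunoproteasome gene was left out in the same way. No order of the classes was fixed by these data.

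The sequences upstream of 4 catalytic subunit genes are shown because 2 of them hold a match to a motif known from proteasome gene promoters. Each was read 5′ to 3′ on the gene's strand from GRCm38.p6 and ends at the base before the outermost annotated start of the gene, and no base lies in an annotated exon. Capitals mark matches to consensus motifs of transcription factors, which are listed with their shares further on. Psmb9, whose upstream bases lie in an exon of Tap1, and Psmb7 are not shown.
Psmb8: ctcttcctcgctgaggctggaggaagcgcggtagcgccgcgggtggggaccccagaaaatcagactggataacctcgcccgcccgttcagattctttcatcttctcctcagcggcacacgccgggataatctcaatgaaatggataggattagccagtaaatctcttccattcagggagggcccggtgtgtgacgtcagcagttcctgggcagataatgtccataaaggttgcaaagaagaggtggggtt
Psmb10: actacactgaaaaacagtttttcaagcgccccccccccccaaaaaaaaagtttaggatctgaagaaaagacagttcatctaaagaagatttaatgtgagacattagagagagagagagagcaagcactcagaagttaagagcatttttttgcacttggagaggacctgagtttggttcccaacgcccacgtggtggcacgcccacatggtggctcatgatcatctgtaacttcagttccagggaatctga
Psmb5: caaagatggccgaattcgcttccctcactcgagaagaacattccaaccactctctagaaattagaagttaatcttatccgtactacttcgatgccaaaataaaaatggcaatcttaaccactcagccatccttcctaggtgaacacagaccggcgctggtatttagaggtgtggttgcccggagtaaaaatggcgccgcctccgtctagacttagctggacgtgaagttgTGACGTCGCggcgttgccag
Psmb6: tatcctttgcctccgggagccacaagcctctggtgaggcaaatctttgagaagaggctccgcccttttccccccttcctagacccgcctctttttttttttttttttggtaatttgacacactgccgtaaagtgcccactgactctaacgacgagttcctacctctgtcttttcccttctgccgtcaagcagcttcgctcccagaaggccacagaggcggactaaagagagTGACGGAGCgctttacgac
The Psmb8 sequence (chr17:34197471-34197720, plus strand) holds no match to the motifs searched and 14 CpG dinucleotides, with 54.8% G and C. The Psmb10 sequence (chr8:105938445-105938694, minus strand) has no match to them either and only 4 CpG dinucleotides, with 44.8% G and C. For STAT factors only the spacing TTCNNNGAA was searched, so matches with other spacings are not marked. The Psmb5 sequence (chr14:54618023-54618272, minus strand) and the Psmb6 sequence (chr11:70525117-70525366, plus strand) each hold a match to the element bound by CNC-bZIP factors, beginning 20 bases before the gene start of Psmb5 and 19 before that of Psmb6. Nfe2l1 and Nfe2l2 are factors of this family and are known activators of proteasome genes. In windows around the RefSeq start, described further on, this motif was present for 15.4% of proteasome genes, beside 15.1% of all genes. A match is a description of these letters and not a binding site.

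Psmb8 encodes the chymotrypsin-like immunoproteasome subunit (chromosome 17, 34197721 to 34201454, mm10). Its 20 interactions had 861 observed counts, with 11 partner bins upstream and 9 downstream, at a median distance of 145 kb. The highest ratio of observed to expected was 4.07, for an intergenic bin 120 kb upstream with 90 counts. Partner bins with a TSS were those of H2-Ob, a subunit of an MHC class II peptide-loading regulator (40 kb, 53 counts, ratio 2.09), of BC051142 (200 kb, 26 counts, ratio 2.16) and of the receptor gene Notch4 (365 kb, 20 counts, ratio 3.52). The bin next downstream, which holds the TSS of Tap2, had 30 interactions. Psmb8 had 50 interactions where the promoter was widened by 2500 bp on each side.

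Psmb9 encodes the immunoproteasome subunit that takes the place of the caspase-like Psmb6 (chromosome 17, 34181987 to 34187764, minus strand). It shares its bin with Tap1, and the 45 interactions belong to both genes. They summed to 2628 counts, with 29 partner bins upstream and 16 downstream. The highest count, 425, was for an intergenic bin 10 kb downstream (ratio 3.49). The bins of 9 interactions held a TSS. These included the class II genes H2-Oa (95 kb, 100 counts), H2-Ob (50 kb, 65 counts) and H2-Eb2 (140 kb, 34 counts), the retinoid X receptor gene Rxrb with the zinc transporter gene Slc39a7 (155 kb, 136 counts), the polycomb gene Ring1 (165 kb, 84 counts) and the butyrophilin-like genes Btnl2 (165 kb, 47 counts) and Btnl1 (190 kb, 22 counts). The remaining TSS bins were those of BC051142 (210 kb, 52 counts) and of Ppt2 and Prrt1 (440 kb, 44 counts). Their ratios ranged from 2.02 for Ring1 to 3.21 for BC051142.

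The TSSs of Psmb8 and Psmb9 are 10.0 kb apart and no interaction joined their bins. At 10 kb this pair is at the shortest distance the list holds. The genes shared 14 partner bins, which is 70% of the interactions of Psmb8 and 31.1% of those of Psmb9. No other members shared a partner bin. These bins lay over the collagen gene Col11a2, H2-Oa, H2-Ob, Btnl1, BC051142 and the heat shock gene Hspa1l, and in intergenic sequence between them. At 12 of the 14 bins the count was higher from Psmb9. For example, the intergenic bin 34175001 to 34180000 had 425 counts with Psmb9 and 126 with Psmb8, and the bin 34075001 to 34080000 was an exception with 75 counts for Psmb9 and 90 for Psmb8. Neighbouring bins are not independent, so the shared bins are a description of the MHC locus.

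Psmb10 encodes the immunoproteasome subunit that takes the place of Psmb7 and lies outside the MHC (chromosome 8, 105935735 to 105938444, minus strand). Its 29 interactions had 2582 counts and stayed within 325 kb. The highest ratio, 4.44, joined it over 230 kb to the bin with the TSSs of Enkd1 and 4933405L10Rik (111 counts). The dipeptidase gene Dpep2 provided the other TSS bin (60 kb, 104 counts, ratio 2.86). Of the partner bins, 7 lay over Dus2, a tRNA-modifying enzyme gene, and 6 over Gfod2.

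Psmb5, which encodes the constitutive chymotrypsin-like subunit (chromosome 14, 54614119 to 54618022, minus strand), had only 2 interactions, with 37 counts in all. The partners were an exonic bin of Dad1, an oligosaccharyltransferase subunit gene (380 kb, 23 counts, ratio 3.80), and the bin with the TSSs of Psme1 and Fitm1 (960 kb, 14 counts, ratio 3.67, FDR 9.97e-05). The second of these was the only interaction between promoter bins of 2 proteasome genes. Psme1 encodes a subunit of PA28, the interferon-γ-inducible activator of the 20S core. The interaction rests on 14 read pairs against 3.81 expected, it was a cluster of 1 bin pair, and the Psme1 bin cannot be told apart from that of Fitm1. Of 9 pairs of proteasome genes with TSSs within 1 Mb, this was the pair with an interaction.

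Psmb6, the gene of the caspase-like subunit (chromosome 11, 70525367 to 70527858, plus strand), had 27 interactions with 1481 counts. The highest ratio, 6.45, was 85 kb downstream at the bin over the kinase gene Mink1 and Chrne (135 counts). Of its partner bins, 5 held a TSS, among them those of the β-arrestin gene Arrb2 (95 kb, 180 counts, ratio 3.66), the Mediator gene Med11 (75 kb, 112 counts, ratio 2.35) and Bcl6b (300 kb, 26 counts, ratio 2.15). The other TSS bins were those of Chrne with 4930544D05Rik (90 kb, 98 counts, ratio 3.78) and of Camta2 (160 kb, 78 counts, ratio 2.03). All 27 interactions of Psmb6 fell in 5 clusters, and the bin before the promoter bin, with its edge 385 bp from the TSS, had 22 interactions of its own.

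Psmb7, the gene of the trypsin-like subunit (chromosome 2, 38588036 to 38644087, minus strand), had 52 interactions with 3002 counts at a median distance of 212.5 kb. Its partner bins lay mostly downstream, with 40 against 12 upstream. Dennd1a, an endocytic exchange factor gene 385 to 830 kb away, lay under the partner bins of 18 of these 52 (34.6%), including the highest ratio of 10.5 (735 kb, 34 counts, 3.23 expected). The only partner bin with a TSS was that of Olfml2a (290 kb, 27 counts, ratio 2.78). Near the promoter, the bin 10 kb downstream within Psmb7 itself had 446 counts (ratio 3.16).

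**Figure D2:**
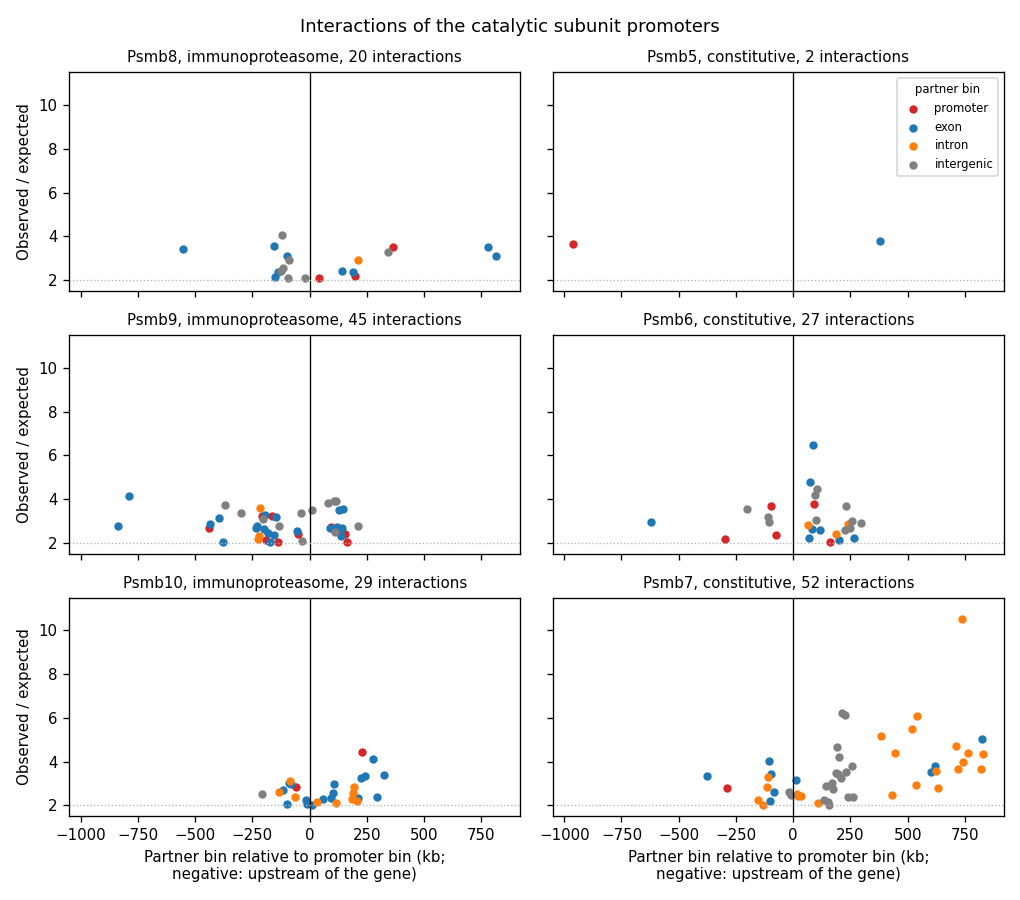
Ratio of observed to expected counts (vertical axis) against the distance of the partner bin from the promoter bin in kb (horizontal axis, negative for upstream) for the immunoproteasome genes (left) and the constitutive genes (right). Each point is 1 interaction coloured by what the partner bin holds, and the dotted line marks the lowest listed ratio of 2. The highest immunoproteasome ratio is 4.44 and the highest constitutive ratio 10.5.

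The kinds of interaction were also set side by side, and Psmb7 gave 52 of the 81 constitutive interactions. The 94 immunoproteasome interactions had a median distance of 147.5 kb and a median ratio of 2.68, and the 81 constitutive interactions had a median distance of 200 kb and a median ratio of 3.03. Ratios of at least 4 made up 4 of 94 (4.26%) at the immunoproteasome promoters and 18 of 81 (22.2%) at the constitutive promoters, beside 23.4% over all promoter interactions. By gene, these shares were 5.00% for Psmb8, 2.22% for Psmb9 and 6.90% for Psmb10, and 0% for Psmb5, 14.8% for Psmb6 and 26.9% for Psmb7. Psmb7 gave 14 of the 18. Without Psmb7 the constitutive share was 13.8% (4 of 29), with a median ratio of 2.94 and a median distance of 160 kb.

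Ratios in this list rise with distance, so the classes were also set side by side within distances. From 50 to 200 kb the median ratio was 2.57 for the immunoproteasome promoters (52 interactions) and 2.86 for the constitutive promoters (34 interactions). Above 200 kb it was 3.06 (33 interactions) and 3.56 (41 interactions), with median expected counts of 10.8 and 6.05. Without Psmb7 the constitutive median was 2.99 from 50 to 200 kb (16 interactions) and 2.90 above 200 kb (13 interactions). The immunoproteasome median was thus the lower one from 50 to 200 kb with and without Psmb7, whereas above 200 kb the order turned without it. Bin pairs of a locus share their promoter bin and each class has only 3 genes, so these differences were not tested.

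At the immunoproteasome promoters 50% of the partner bins overlapped an exon without a TSS (95% Wilson interval 40.1 to 59.9%), and at the constitutive promoters 22.2% did (14.5 to 32.4%). Introns held 13.8% (8.26 to 22.2%) and 32.1% (22.9 to 42.9%), and intergenic bins 21.3% and 37.0%. A TSS lay in 14.9% of the immunoproteasome and 8.64% of the constitutive partner bins. Psmb7 gave 23 of the 26 constitutive intronic bins, most of them in Dennd1a. Without Psmb7 the constitutive shares were 31.0% exonic (17.3 to 49.2%), 10.3% intronic, 37.9% intergenic and 20.7% with a TSS (29 bins), so the orders of the intronic and TSS shares turned. With the 14 bins that Psmb8 and Psmb9 share counted once, the immunoproteasome shares were 51.2% exonic, 15.0% intronic, 18.8% intergenic and 15.0% with a TSS (80 bins). The intervals cover counting error only. Over all proteasome promoters, 96 of 883 partner ends held a TSS (10.9%, 8.99 to 13.1%), beside 13.7% over all promoters, and 39.1% were exonic, beside 33.0%.

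**Figure D3:**
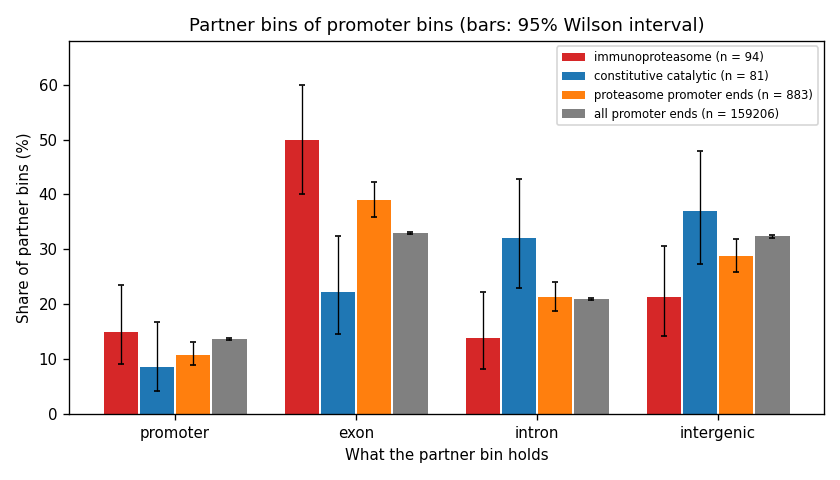
Share of partner bins (%, vertical axis) that hold a TSS, an exon or an intron of a protein-coding gene, or no such gene (horizontal axis). Colours mark the immunoproteasome promoters (red), the constitutive promoters (blue), all proteasome promoters (orange) and all promoters (grey). Error bars are 95% Wilson intervals. Exonic bins are 50% of immunoproteasome and 22.2% of constitutive partner bins.

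The inducible PA28 genes Psme1 and Psme2 lie 12.7 kb apart on chromosome 14, and no interaction joined them. Psme1 had 6 interactions, all at 540 kb or more, with 83 counts in all. Besides the bin of Psmb5, a TSS lay in the bin of Cenpj and Parp4 at the limit of 1000 kb (21 counts, ratio 4.75). Psme2, whose bin also holds the TSS of Rnf31, a ubiquitin ligase gene, had 16 interactions with 996 counts. Its TSS partners were Tssk4 (60 kb, 89 counts), Cideb (165 kb, 33 counts) and the leukotriene receptor gene Ltb4r2 (170 kb, 47 counts), with ratios of 2.02 to 2.35.

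Of the other activators, Psme3, the gene of the nuclear PA28 form, had 19 interactions, and Psme4, the gene of the activator PA200, had 45. Psme4 held the highest count of any proteasome interaction, 629 with a bin 10 kb into its own gene (153.8 expected, ratio 4.09), and 1 of the highest ratios, 10.8 with an exonic bin of the spectrin gene Sptbn1 670 kb upstream (56 counts, FDR 1.87e-36). In all, 8 of its partner bins overlapped Sptbn1. Psme3 was joined to the TSS bins of the ribosomal protein gene Rpl27 (125 kb, 140 counts) and the interferon-induced gene Ifi35 (130 kb, 96 counts). Psmf1, which encodes the proteasome inhibitor PI31, had 5 interactions.

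The α ring genes had a median of 20 interactions, from 7 for Psma3 to 75 for Psma1. Psma1 (chromosome 7, 114264606 to 114276118, minus strand) ranked 144 among the 20720 genes, the highest rank of a proteasome gene. Of its partner bins, 64 lay upstream and 11 downstream, and 23 overlapped Pde3b, a phosphodiesterase gene 140 to 250 kb away. The ratio reached 11.4 in an intron of Pde3b (205 kb, 132 counts, 11.6 expected, FDR 9.26e-88). The calcitonin gene Calca was a TSS partner 360 kb away (72 counts, ratio 5.98). Psma2 had 27 interactions, Psma4 9, Psma5 13, Psma6 20 and Psma7 21.

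Psma6 gave the TSS-to-TSS interaction with the highest count. Its bin and that of Nfkbia, which encodes the NF-κB inhibitor IκBα, lie 95 kb apart and had 455 counts against 80.0 expected (ratio 5.69, FDR 8.48e-180). The interaction starts from the downstream TSS of Psma6, in the bin 55395001 to 55400000 on chromosome 12, which had 19 of the 20 interactions. The bin of the outer TSS, 55380001 to 55385000, had 1, so with 1 TSS per gene Psma6 fell to 1 interaction. Psma7, whose bin also holds the TSS of Ss18l1, had all 21 partner bins downstream, 13 of them over the TFIID gene Taf4. Psma8, the testis form of an α subunit, had 1 interaction.

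Among the non-catalytic β genes, Psmb1 had 33 interactions and Psmb3 had 30, whereas Psmb2 and Psmb4 had 1 each. At Psmb1 11 partner bins overlapped the chromatin remodeller gene Chd1, 210 to 275 kb away. The thymus subunit gene Psmb11 had 1 interaction. The assembly chaperones of the 20S core had a median of 23, with 6 for Psmg1, 55 for Psmg2, 24 for Psmg3 and 22 for Psmg4. Psmg2 shares its bin with Cep76, and Psmg3 shares its bin with Gm26938. All 24 partner bins of Psmg3 lay upstream, 9 of them over the spindle checkpoint gene Mad1l1.

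**Figure D4:**
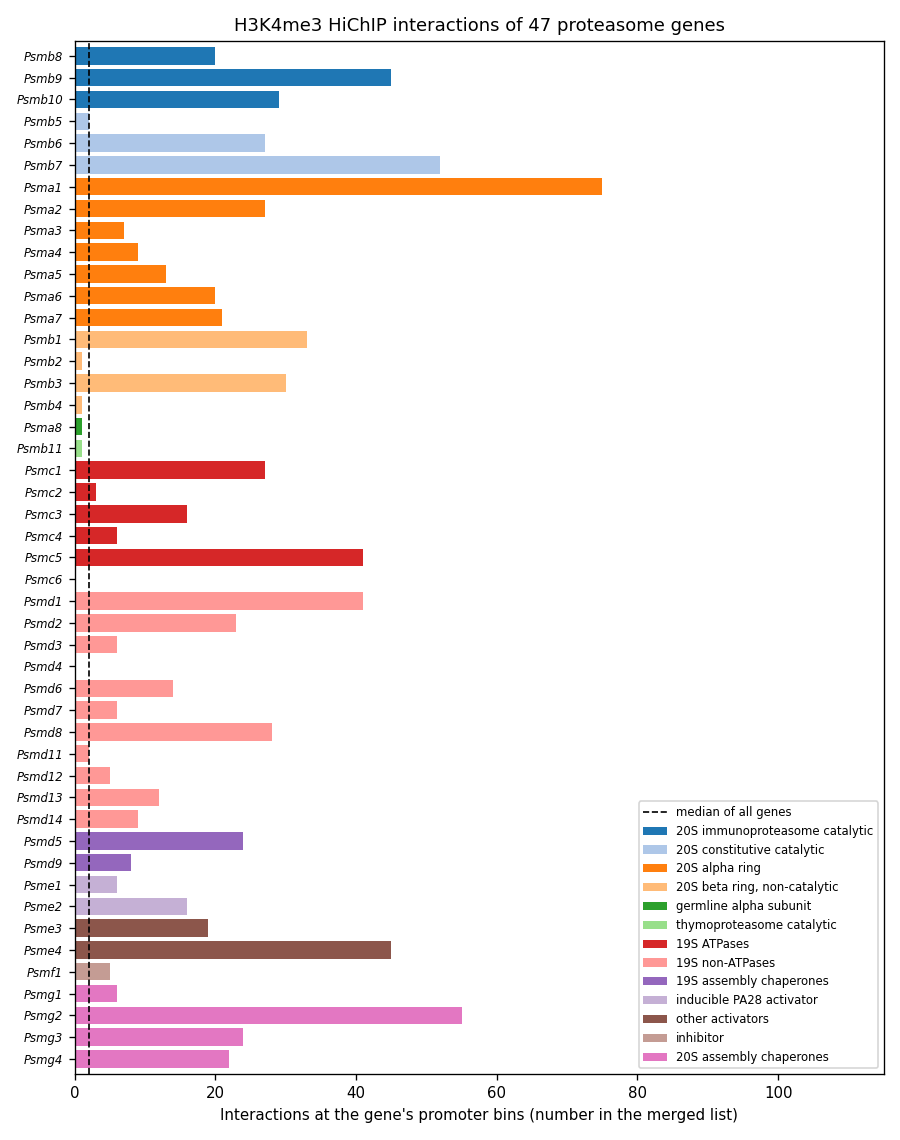
Number of interactions at the promoter bins (horizontal axis) of each of the 47 proteasome genes (rows), coloured by role, with the median of all genes as a dashed line at 2. Psma1 has 75, Psmg2 has 55 and Psmb7 has 52, whereas Psmc6 and Psmd4 have 0.

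The 19 genes of 19S subunits and their chaperones had a median of 9 interactions, beside 20 for the 19 genes of 20S subunits. The ATPase genes had 27 (Psmc1), 3 (Psmc2), 16 (Psmc3), 6 (Psmc4), 41 (Psmc5) and 0 (Psmc6). Psmc5 shares its bin with Ftsj3. This bin was joined to the TSS bin of the chromatin remodelling gene Smarcd2 10 kb away (372 counts, ratio 3.15). It had 536 counts with the bin 10 kb upstream over Ddx42 and Ftsj3. Psmc3 had 528 counts with the bin 10 kb upstream over Rapsn, at a ratio of only 2.14. Psmc4 was joined to the bin with the TSSs of Nfkbib, another NF-κB inhibitor gene, and Sirt2 (715 kb, 16 counts, ratio 3.43).

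Of the non-ATPase genes, the scaffold subunit genes Psmd1 and Psmd2 had 41 and 23 interactions and the lid gene Psmd8 had 28. The lid genes Psmd3 (6), Psmd6 (14), Psmd7 (6), Psmd11 (2), Psmd12 (5) and Psmd13 (12) and the deubiquitinase gene Psmd14 (9) followed. Psmd4, which encodes a ubiquitin receptor, had 0. Psmd8 held the highest ratio of the proteasome list, 11.8 with an exonic bin of the Mediator gene Med29 795 kb downstream, which rests on 26 counts against 2.20 expected. Psmd2 reached 10.7 with an intergenic bin 765 kb upstream (26 counts). These interactions of Psmd8 and Psmd2 were each a cluster of 1 bin pair. Psmd8 also had the most TSS partners, 10, among them the calcium channel gene Ryr1 (55 kb, 118 counts) and the potassium channel gene Kcnk6 (50 kb, 212 counts). The 19S chaperone genes Psmd5 and Psmd9 had 24 and 8 interactions. Psmd5 shares its bin with Cutal. This bin was joined to TSS bins of Traf1, a TNF receptor signalling gene, 85 kb (124 counts) and 90 kb (221 counts) away.

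The neighbouring bins of Psmd4 had 2 and 4 interactions, and those of Psmc6 had 1 and 0. The bin after that of Psmd12, which had 5 interactions itself, had 23. With the promoter widened by 2500 bp on each side, Psmd4 had 4 interactions and Psmc6 still had 0. Of the 47 members, 35 had at least 1 partner bin with a TSS, and these bins named 104 partner genes. The same share was not counted over all genes, so the 35 cannot be called high or low. Per partner end, a TSS was found for 10.9% at proteasome promoters and 13.7% at all promoters.

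In distance and strength the proteasome promoters were close to all promoters. The median distance was 190 kb for the 882 proteasome interactions and 190 kb for all 148313 promoter interactions. The median ratios were 2.90 and 2.99, and ratios of at least 4 made up 21.0% and 23.4%. Within 10 to 50 kb the medians were 2.41 and 2.46, within 50 to 200 kb 2.66 and 2.71, and above 200 kb 3.30 and 3.47. The proteasome genes thus had a higher median number of interactions than all genes (16 and 2, or 16 and 7 among genes with at least 1). The cytosolic ribosomal protein genes had the same median of 16. In distance and ratio the proteasome medians were close to those of all promoters.

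Promoter windows of 300 bases, from 250 before to 50 after the RefSeq start (GRCm38.p6), were found for 39 of the 47 genes. Not found were Psma8, Psmb1, Psmb2, Psmb7, Psmc3, Psmd3, Psmd7 and Psmg2. Of the 42 windows, 39 had their RefSeq start within 100 bp of a GENCODE TSS. The exceptions were 1 of 2 windows of Psmc2 and those of Psmb8 and Psmb9. The RefSeq starts of Psmb8 and Psmb9 lie 405 and 434 bp past the TSSs used for the bins. Motifs were searched on both strands and compared with the windows of 15680 genes. The ETS motif CCGGAAG was present for 14 of 39 proteasome genes (35.9%), beside 13.6% of all genes, and this was the largest gap among the motifs searched. ETS factors include Spi1, the lineage factor of macrophages, and many that all cells share. Which of them, if any, binds these matches was not tested. The interferon-stimulated response motif GAAANNGAA was present for 7 genes (17.9%, beside 9.47%), among them Psme1. It was not found in the window of Psmb10 or in those of Psmb8 and Psmb9, which lie inside these genes. The NRF1 motif GCGCATGC was present for 3 genes (7.69%, beside 4.13%), and the CNC-bZIP motif TGACNNNGC for 6 (15.4%, beside 15.1%), including Psmb5 and Psmb6. For the NF-Y motif CCAAT the shares were 33.3% and 41.7%, for the SP motif GGGGCGGGG 15.4% and 18.3%, for the AP-1 motif TGANTCA 5.13% and 8.20%, and for the STAT motif TTCNNNGAA 7.69% and 9.05%. The MboI site GATC, at which the chromatin was cut, was present in 53.8% and 49.9%. Only 2 of 105 matches overlapped a match to another motif. The median G and C content was 58.5% in the proteasome windows and 57.2% in all windows, with medians of 19 and 15 CpG dinucleotides.

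Psmd2 and Psme4, whose interactions were among the highest in ratio, are shown because both carry ETS matches in these windows. The sequences were read as above and end at the base before the gene start.
Psmd2: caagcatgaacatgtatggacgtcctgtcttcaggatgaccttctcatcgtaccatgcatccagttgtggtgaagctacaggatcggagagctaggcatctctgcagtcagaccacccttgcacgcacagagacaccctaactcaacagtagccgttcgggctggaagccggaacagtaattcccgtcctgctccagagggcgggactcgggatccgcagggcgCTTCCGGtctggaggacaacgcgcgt
Psme4: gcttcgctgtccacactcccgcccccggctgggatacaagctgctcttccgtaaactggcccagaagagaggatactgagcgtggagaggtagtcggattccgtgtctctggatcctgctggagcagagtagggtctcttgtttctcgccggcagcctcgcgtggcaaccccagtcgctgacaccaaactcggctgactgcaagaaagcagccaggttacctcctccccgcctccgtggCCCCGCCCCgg
In the Psmd2 sequence (chr16:20651402-20651651, plus strand) the capitals mark the ETS match on the opposite strand, beginning 26 bases before the gene start. In the Psme4 sequence (chr11:30771476-30771725, plus strand) they mark an SP match on the opposite strand, beginning 11 bases before the gene start. The ETS match of Psme4 begins within the SP match and runs past the gene start, so it is not marked here.

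**Figure D5:**
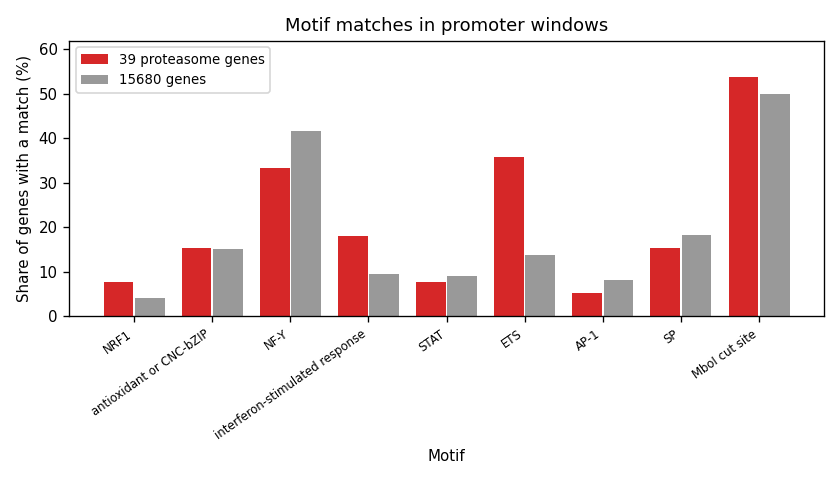
Share of genes (%, vertical axis) whose promoter window holds a match to each motif (horizontal axis), for 39 proteasome genes (red) and 15680 genes (grey). The ETS motif has 35.9% against 13.6%, and the CNC-bZIP motif 15.4% against 15.1%.

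The 42 genes of 4 lists around the proteasome had a median of 13 interactions, beside 2 over all genes. Of all genes, 63.2% had at least 1 interaction. The 7 proteasome genes outside the symbol rule had a median of 12 interactions, with 54 for Pomp, the maturation factor of the 20S core, 35 for the deubiquitinase gene Uchl5, and 1 each for the ubiquitin receptor gene Adrm1, the deubiquitinase gene Usp14 and Akirin2. The 9 autosomal ubiquitin and shuttle receptor genes had a median of 27, led by Rad23b with 63, and none was at 0. The 12 regulators of proteasome genes had a median of 6.5, with 12 for Nfe2l1, 3 for Nfe2l2 and 0 for Nfe2l3. The 15 genes of class I antigen presentation had a median of 14, with 45 for Tap1, 30 for Tap2, 28 for Tapbp and 5 for B2m, and all had at least 1. The 45 of Tap1 are the same interactions as those of Psmb9, whose bin it shares.

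The cells were checked against markers by the same count, for which all genes had a median of 2 and 63.2% had at least 1. All 10 macrophage markers had at least 1 interaction (median 12, range 1 to 42), whereas the 19 markers of T cells, B cells, neutrophils and fibroblasts had medians of 0 to 1 and at most 9 interactions, and 10 of these 19 were at 0.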

How the data were processed

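H3K4me3 HiChIP was measured in 4 samples of C57BL/6J macrophages, 2 treated with IL-4 and 2 basal, grouped by their titles. Bowtie2, bedtools and mm10 are named in the submitters' processing notes. According to the study's methods, the authors called interactions with MAPS at 5000 bp on the merge of all 4 samples. For each bin pair the deposited list gives the observed count of read pairs, the count that the authors' model expected, and an FDR, which is an adjusted p-value of the authors. The authors' cluster labels and cluster sizes (deposited counts of bin pairs) served for the alternatives, and a summed −log10 p per cluster was not used. All listed ratios were at least 2 and all counts at least 5. MAPS tests bin pairs with the mark in at least 1 bin, so bins without it enter only as partners, and a ratio depends on how well the model describes each distance. The observed counts sum to 12385062 over the listed pairs, which is not a sequencing depth.

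Genes were taken from GENCODE M21 (basic set), whose build matches mm10, and no bin lay beyond a chromosome end. Only protein-coding genes were kept, so a bin called intergenic may hold a non-coding gene or a pseudogene. Interactions per gene, ratios of observed to expected, distances between bin starts and partner classes (TSS, exon, intron, intergenic, in this order) were computed with Python 3.11.15, numpy 2.4.6, pandas 2.3.3, scipy 1.17.1 and matplotlib 3.10.9, and the counting was tested on simulated data. Shares carry 95% Wilson intervals. No test was made, because the list has no replicates. Genes named in full are the catalytic and PA28 genes, the 5 members with the most interactions, the 5 interactions with the highest ratio and the 5 with the highest count. Other partners were picked as examples with their values in view, and ribosomal protein genes, divergent promoters, values without Psmb7 and partner bins counted once were added after seeing the data. The members and the gene lists were chosen with earlier results of these data known. Foxo4 and Uba1, listed with the regulators and ubiquitin genes, and Psmd10 lie off the autosomes and were not analysed here. Alternatives were stricter FDR, count and ratio limits, 1 interaction per cluster, no singletons, wider promoters, 1 TSS per gene and a wider symbol rule. Further alternatives were genes with at least 1 interaction and promoter bins not shared.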

Additional observations from a re-analysis of the deposited data

How the results depend on the processing

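The number of interactions depended on the limits set. The median per proteasome gene, 16 as reported, was 5 at an FDR under 1e-06, 10 at counts of at least 20, 2 at ratios of at least 4, 3 with 1 interaction per cluster and 9 over genes whose promoter bins were not shared. The medians over all genes under the first 4 were 1, 1, 0 and 1. Among genes with at least 1 interaction, the median was 16 for the proteasome and 7 for all genes. The share of proteasome genes with an interaction was 76.6% at ratios of at least 4 and 85.1% with 1 interaction per cluster. Shares over all genes were not counted under these limits, so these values cannot be called high or low. The difference of medians between immunoproteasome and constitutive genes, 2 as reported, was 6 at an FDR under 1e-06 and at counts of at least 20, 4 with 1 interaction per cluster, 0 with a TSS within 2500 bp of the bin and 14.5 without Psmb7, an alternative added after seeing the data. It was -3 at ratios of at least 4 and without clusters of 1 bin pair. The median distance was 120 kb at an FDR under 1e-06, 440 kb at ratios of at least 4 and 350 kb with 1 interaction per cluster. The share of partner bins with a TSS was 4.86% at ratios of at least 4 and 26.7% with the wider promoters. The wider rule makes more bins count as promoter bins. At ratios of at least 4 the median ratio was 4.81, beside 4.97 over all promoters, and this limit raises it by construction. The median over the 42 genes of the 4 lists around the proteasome, 13 as reported, was 7 at the stricter FDR, 8.5 at the count limit, 1 at the ratio limit, 4 with 1 interaction per cluster and 21 with the wider promoters. Stricter limits and 1 interaction per cluster lower the counts by their construction. For the differences between the immunoproteasome and constitutive genes the cause was not tested. The wider symbol rule and 1 TSS per gene moved none of these values beyond 1.5 times.

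No paired analysis was possible because the list merges all 4 samples, and no replicate could be left out for the same reason. The list holds no depth per sample. Distant interactions rest on few read pairs, such as 14 for Psmb5 with Psme1, and a gene at 0 has no bin pair past the deposited limits, which does not show that its promoter makes no contacts.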
